A study of Rattus norvegicus with 16 samples.

Results

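Schwann cells purified from the rat sciatic nerve 7 days after a crush were set against whole nerve at the same time, to see which transcripts of the injured nerve were carried by Schwann cells and which belonged to its other cells. The comparison used the 2 Schwann cell and 2 whole nerve libraries labelled 7d post-crush, 4 of the 16 libraries of the series, and their membership was set by these labels alone. The other 12 libraries held the same 2 tissues before injury and at days 3 and 5, again in pairs, and entered as a source of the spread and for the tests between days. All 4 libraries came from rats that the labels give as postnatal day 18, the age at which the methods place the crush. No strain, transgene or drug is named in the labels, and both tissues carried the same injury. Each nerve piece lay distal to the crush, and every Schwann cell sample pooled at least 10 nerves, so a library is a pool of animals and not a single animal.

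The preparations differed in more than cell content. Schwann cells were dissociated with enzymes, passed over dishes that removed CD45-positive and Thy1-positive cells and then held on a dish coated with O4, an antibody to a glycolipid of the Schwann cell surface, before RNA was taken with a kit for small samples. Whole nerve was not dissociated, and its RNA was taken with a kit for fibrous tissue. Cell identity, dissociation and RNA kit therefore moved together in every comparison and cannot be told apart.

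Schwann cells are the glia of peripheral nerve. After axons are cut or crushed, those distal to the injury lose their axons, shut down myelin genes, divide and take on a repair state in which they clear myelin, release growth factors and line up as tracks for regrowing axons. They share the nerve with macrophages, which enter from blood and take up debris, with fibroblasts of the endoneurium and epineurium, with the perineurial sheath, with blood vessels and their mural cells, with mast cells and with fat around the nerve.

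The 4 libraries held between 12334355 and 17850534 expected counts, against 10555067 to 27562637 over the series. Libraries of a tissue differed from each other by a median of 0.157 (Schwann cells) and 0.172 (whole nerve) on the log2 scale over the 12561 genes with at least 10 counts in each, whereas the 2 tissues differed by a median of 0.423. Of 31038 genes, 16829 passed the count filter and were tested with edgeR's quasi-likelihood test on all 16 libraries, and a call below means an adjusted p (Benjamini-Hochberg, over all tested genes) under 0.05. Fold changes are log2 of Schwann cells over whole nerve with the standard error of the fit (n = 2 libraries per tissue), and levels are the deposited FPKM of replicates 1 and 2 in that order, the Schwann cell pair coming first wherever a pair is set against another. Nothing in the labels ties the replicates to separate cohorts of animals, so the p-values measure the spread between libraries. In total 3763 genes were higher in Schwann cells, 22.4% of those tested, and 4825 were higher in whole nerve, 28.7%. With upper-quartile scaling the counts were 4546 and 4299, so which side held more genes depended on the scaling. These 2 shares are the background for every list below. The median of all tested genes was -0.03, and the 2 libraries of one tissue lay wholly above or below those of the other for 75.1% of the genes, so an absence of overlap is common here and says little by itself.

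Over all tested genes the large differences were more often toward whole nerve. At 4-fold or more, 366 genes (2.17%) were higher in Schwann cells and 2376 (14.1%) in whole nerve. Among genes with at least 10 counts in every day 7 library these counts were 120 and 548, so most of these genes had under 10 counts in at least 1 library. With mitochondrial and ribosomal RNA genes left out, the genes at least 4-fold higher in whole nerve made up 15.2% and 16.7% of the summed FPKM of the whole nerve libraries, and 0.992% and 0.971% of that of the Schwann cell libraries. The genes at least 4-fold higher in Schwann cells made up only 1.29% and 1.52% of the Schwann cell sum and 0.133% and 0.150% of the whole nerve sum. Of the 100 most abundant genes of whole nerve, 83 were lower in Schwann cells, 16 of them by at least 4-fold, and 5 were higher (Cd63, Ywhae, S100b, Scd2 and Vim). Of these 5, Cd63 lost its call without Schwann cell replicate 1, Schwann cell replicate 2, whole nerve replicate 1 or whole nerve replicate 2 (log2 0.20, 0.22, 0.22 and 0.19), Ywhae without Schwann cell replicate 2 or whole nerve replicate 1 (log2 0.27 and 0.26) and S100b without Schwann cell replicate 1, whole nerve replicate 1 or whole nerve replicate 2 (log2 0.24, 0.30 and 0.34). Such a ranking favours genes high in whole nerve, and of the 100 most abundant genes of Schwann cells 28 were higher there and 55 lower, 1 by at least 4-fold. Of the 1000 most abundant genes of Schwann cells 368 were higher and 295 lower, 21 and 9 of them by at least 4-fold. In bulk samples fewer cells of a type and less RNA per cell cannot be told apart, and this holds for every list that follows.

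**Figure D1:**
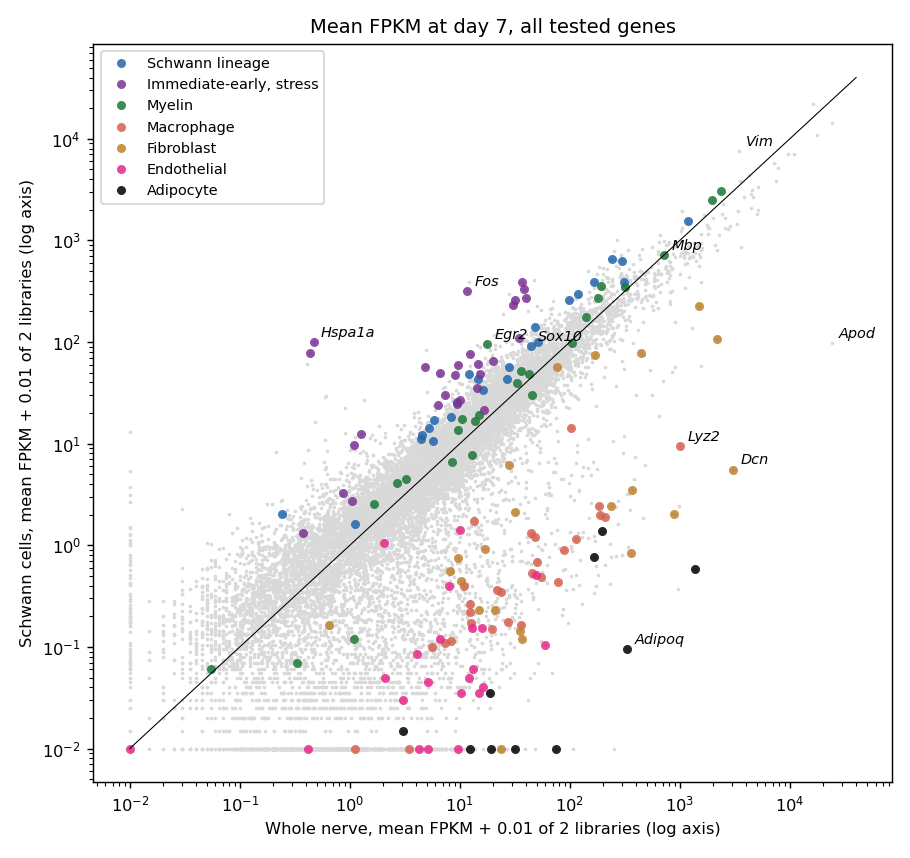
Mean FPKM of each tested gene in Schwann cells (vertical axis) against whole nerve (horizontal axis) at day 7 post-crush, both on a log axis after 0.01 FPKM was added, with 7 gene lists in colour, other genes in grey and a line at equal level. Apod, Dcn, Lyz2 and Adipoq lie far below the line, Mbp and Sox10 close to it, and Hspa1a, Fos and Egr2 above it.

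The most abundant message of nuclear origin in the injured whole nerve was far lower in the purified Schwann cells. Apod, which encodes the secreted lipid carrier apolipoprotein D, stood at 20450.2 and 27672 FPKM in whole nerve, 3.84% and 5.39% of the summed FPKM without mitochondrial and ribosomal RNA genes. In Schwann cells it stood at 96.99 and 98.5 FPKM (log2 -8.01 ± 0.28, adjusted p = 2.90e-11). Most other genes at the top of the abundance order were mitochondrial (COX1, COX3, CYTB, ATP6, COX2, ND1, ND2, ND4, ND4L and ND5), ribosomal RNA (such as LOC257642) or ribosomal proteins (Rpl21, Rpl31 and Rpl41). S100a6, a calcium-binding protein, was the other gene near the top with a difference over 4-fold, at 944 and 790.5 FPKM in Schwann cells and 4154 and 2972 in whole nerve. The 13 mitochondrially encoded messages had a median log2 of -0.67, with 12 called higher in whole nerve and 0 in Schwann cells, and took 4.86% and 5.44% of Schwann cell counts against 7.81% and 8.83% of whole nerve counts.

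The labels held against their markers. Of 24 genes of the Schwann cell lineage, 23 were higher in the purified cells and 0 in whole nerve, with a median log2 of 1.19. Transcription factors of the lineage were among them. Sox10, required for Schwann cells at every stage, stood at 85.3 and 95.5 FPKM in Schwann cells and 36.9 and 52.1 in whole nerve (log2 0.97 ± 0.15, adjusted p = 1.17e-04). Sox2, which keeps the cells immature, was at 42.02 and 53.8 against 9.58 and 14.4 FPKM (log2 1.94 ± 0.20), and both purified libraries lay above both whole nerve libraries. Foxd3, a neural crest factor, was at 13.3 and 15 against 5.54 and 4.96 FPKM, and Tfap2a, another, was at 2.31 and 1.77 against 0.17 and 0.29 FPKM, the largest fold change of the list (log2 3.10 ± 0.34). Surface proteins followed the same direction.

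Erbb3, the receptor through which axonal neuregulin acts on Schwann cells, stood at 251 and 271 FPKM in the purified cells and 84.6 and 112 in whole nerve (log2 1.35 ± 0.13). Ngfr, the p75 neurotrophin receptor raised in denervated Schwann cells, was at 558 and 751 against 181 and 304 FPKM (log2 1.38 ± 0.22). Adhesion molecules were also higher in the purified cells, namely Ncam1 (log2 1.54), Cdh19 (1.51), Nrcam (1.45), L1cam (1.38) and Cdh2 (1.37). The smallest differences of the list belonged to some of its most abundant messages. S100b, the calcium-binding protein by which Schwann cells are usually stained, stood at 1622 and 1478 against 1168 and 1209 FPKM (log2 0.32 ± 0.12, adjusted p = 0.0374), and Art3 had a log2 of 0.28 ± 0.10. Art3 lost its call without Schwann cell replicate 1, whole nerve replicate 1 or whole nerve replicate 2 (log2 0.16, 0.32 and 0.23). Only Gfra3, a co-receptor for artemin, was not called, at 1.94 and 1.27 against 0.80 and 1.41 FPKM.

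Transcripts of other cells differed by far larger factors. All 28 macrophage genes tested were higher in whole nerve, with a median log2 of -6.30, and their summed FPKM was 41.2 and 40.2 in Schwann cells against 2369 and 2491 in whole nerve. The endothelial list summed to 3.79 and 4.52 FPKM in Schwann cells against 254 and 275, and the fibroblast list to 538 and 599 against 9160.5 and 9828. Ptprc, which encodes CD45, stood at 0.17 and 0.15 against 12.4 and 13.1 FPKM and Thy1 at 0.41 and 0.69 against 8.52 and 7.65, but both proteins were used to remove cells and their loss is no finding. A gene expressed only in whole nerve could pass the count filter only through whole nerve and so had to differ once tested, and the counts of lists of other cells are read as a description of the preparation. Markers of neighbouring tissue also moved with the tissue: 12 skeletal muscle genes summed to 0.38 and 0.20 FPKM in Schwann cells and to 127 and 8.69 in whole nerve, and 8 red cell genes to 12.3 and 120.1 against 1635 and 1332. The muscle message was thus much higher in 1 whole nerve library than in the other.

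**Figure D2:**
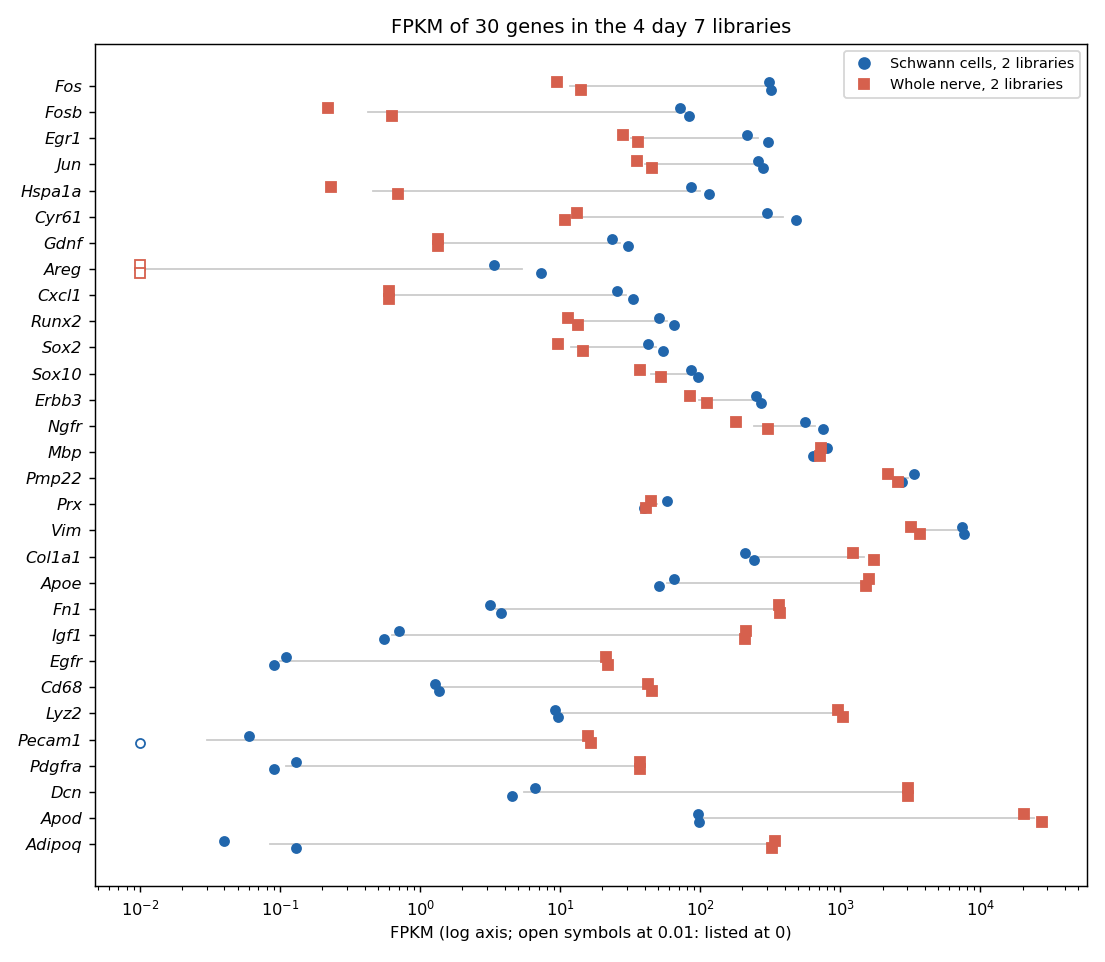
FPKM of 30 genes in each of the 4 day 7 libraries on a log axis, with Schwann cell libraries as circles, whole nerve libraries as squares, values of 0 as open symbols and a thin line between the tissue means. Fos, Fosb and Hspa1a lie to the Schwann cell side, the symbols of Mbp, Pmp22 and Prx lie close together, and Dcn, Apod and Adipoq lie far to the whole nerve side.

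Genes of the repair state were mostly higher in Schwann cells. Of 28 repair genes tested, 21 were higher in the purified cells and 4 in whole nerve, with a median log2 of 1.35. The median was 1.21 in uncrushed nerve, 1.32 at day 3 and 1.40 at day 5, so this excess was not particular to day 7. Against uncrushed nerve the difference of 8 members moved toward Schwann cells and of 7 toward whole nerve, beside 11.6% and 14.4% of all genes. Gdnf, a survival factor for motor neurons, was at 23.4 and 30.3 FPKM in Schwann cells and 1.33 and 1.34 in whole nerve (log2 4.24 ± 0.24, adjusted p = 3.01e-09), the largest difference toward Schwann cells among members with more than 3 counts in a library of each tissue. Jun, the transcription factor that drives the repair state, was at 259.8 and 280.2 against 35.1 and 45.4 FPKM (log2 2.69 ± 0.12). Runx2, another transcription factor of injured Schwann cells, was at 50.6 and 64.8 against 11.4 and 13.4 FPKM (log2 2.16 ± 0.14). Each of these genes had both purified libraries above both whole nerve libraries. Jun and Atf3, another member, also belong to the immediate-early and stress list below, where dissociation and cell identity cannot be told apart. Atf3 had a mean of 410 FPKM in uncrushed Schwann cells against 4.5 in uncrushed whole nerve, and of 229 against 30.2 at day 7.

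Secreted factors of the list included Fgf5 at 25.9 and 31.9 FPKM in Schwann cells against 6.47 and 8.49 in whole nerve (log2 1.87 ± 0.21), Btc at 24.2 and 36.1 against 10.7 and 12.3 and Ucn2 at 38.8 and 56.4 against 19.7 and 23.3 (log2 1.07 ± 0.23). Clcf1, a cytokine of the ciliary neurotrophic factor family, was at 7.23 and 8.21 against 1.57 and 1.66 FPKM, and Shh, a hedgehog ligand, was at 3.25 and 2.56 against 1.03 and 0.78 FPKM (log2 1.62 ± 0.34). Areg, a ligand of the epidermal growth factor receptor, was at 3.35 and 7.31 FPKM in Schwann cells with 0 counts in both whole nerve libraries, at least 21.8-fold higher when whole nerve is set at 3 counts per library. Structural and surface members were higher too, with Tnc, a matrix protein, at log2 1.83, Cd44, a hyaluronan receptor, at 1.41, and Gfra1, the co-receptor for Gdnf, at 475 and 468 FPKM against 194 and 203 (log2 1.25 ± 0.12).

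The 4 repair genes higher in whole nerve lay apart from the rest. Egfr, the epidermal growth factor receptor, was at 0.11 and 0.09 FPKM in Schwann cells and 21.3 and 22.1 in whole nerve (log2 -7.57 ± 0.29). Stmn2 and Gap43, which encode growth proteins also made by neurons, had log2 values of -4.62 ± 0.45 and -1.92 ± 0.33, and Mdk, the growth factor midkine, had -0.68 ± 0.16. Bdnf and Zeb2 were not called, at log2 0.62 ± 0.38 and 0.21 ± 0.11, and Igfbp2 was at 0 and 0 counts in Schwann cells and was called only without whole nerve replicate 2 or with no count filter (adjusted p = 0.0422 and 0.0346).

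Immediate-early and stress genes made up 7 of the 12 largest Schwann cell differences among called genes at 30 FPKM or more with no overlap between tissues. These genes are switched on within minutes by growth factors, tissue handling or heat, and they encode transcription factors, phosphatases, decay factors and chaperones. Of 28 tested, 26 were higher in Schwann cells and 0 in whole nerve, with a median log2 of 2.44, and in their summed FPKM the purified cells stood at 2491 and 2983 against 350 and 420 in whole nerve. In these 16 libraries only the purified cells were dissociated, so the part of enzyme dissociation cannot be told apart here from that of cell identity, and the study's dissociated nerve without purification was not analysed here. The paper states that purification was not anticipated to alter profiles significantly, immediate early genes excepted. It cites a comparison of whole with dissociated nerve for this.

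Where a promoter was held for them, 6 stretches that carry a cyclic AMP or serum response element are shown as examples, because factors that switch on this class of genes are known to bind such letters. RefSeq promoters of the GRCr8 assembly (not the Rnor_6.0 build of the files) were matched by symbol for 19 of the 28, the other 9 being Fos, Jun, Egr3, Atf3, Ier3, Nr4a3, Klf2, Cebpd and Myc. Within 250 bases before the start, read on both strands, the cyclic AMP response element TGACGTCA stood in 4 of the 19 (21.05%) against 1.587% of 33469 promoters, and the serum response (CArG) box in 3 (Egr1, Zfp36 and Klf6, 15.79%) against 1.497%. The AP-1 site TGANTCA was in 0 of the 19 against 6.34% of all promoters, and the heat shock element in 1 (Hsph1, 5.263%) against 0.6633%. Capitals mark the element, which is the cyclic AMP response element in the first 4 and the serum response box in the last 2, each line runs 5′ to 3′ on the gene's strand, and a match is a description of the letters and not evidence of binding.
Jund, chr16:18769959-18770018, minus strand: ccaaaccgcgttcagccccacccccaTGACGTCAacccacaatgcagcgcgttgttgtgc
Ier2, chr19:40399281-40399340, plus strand: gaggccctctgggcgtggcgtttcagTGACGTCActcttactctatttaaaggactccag
Dusp1, chr10:17184703-17184762, plus strand: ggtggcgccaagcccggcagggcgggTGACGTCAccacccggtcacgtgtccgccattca
Btg2, chr13:48087858-48087917, minus strand: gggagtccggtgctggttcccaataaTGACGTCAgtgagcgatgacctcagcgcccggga
Zfp36, chr1:92799109-92799165, minus strand: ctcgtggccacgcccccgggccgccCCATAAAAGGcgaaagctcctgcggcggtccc
Klf6, chr17:69458645-69458704, minus strand: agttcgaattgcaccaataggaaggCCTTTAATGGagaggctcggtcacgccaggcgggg

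The genes with these elements differed in size of change. Zfp36, which binds and destabilizes inflammatory messages, stood at 374 and 411 FPKM in Schwann cells and 34.4 and 38.9 in whole nerve (log2 3.36 ± 0.13, adjusted p = 7.97e-11). Klf6, a zinc finger factor, was at 296 and 362 against 34.8 and 41.6 FPKM (log2 3.05 ± 0.15). Of the 4 with a cyclic AMP response element, Dusp1, a phosphatase of MAP kinases, was at 61.2 and 91.2 against 10.7 and 14.1 FPKM (log2 2.56 ± 0.24). Btg2 had a log2 of 1.87 ± 0.19 and Jund of 1.38 ± 0.39, the latter losing its call without whole nerve replicate 1 (log2 1.23), while Ier2 was low throughout, at 1.10 and 1.52 against 0.34 and 0.39 FPKM, and not called (adjusted p = 0.0765).

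The heat shock chaperone Hspa1a showed the largest Schwann cell excess of any gene at 30 FPKM or more, at 85.1 and 115 FPKM in Schwann cells and 0.23 and 0.69 in whole nerve (log2 7.70 ± 0.45, adjusted p = 3.87e-09). LOC108348108, which shares the gene number of its near-identical copy Hspa1b, was at 36.7 and 83.9 against 0.46 and 0.33 FPKM, and how reads were split between the copies is uncertain. The AP-1 subunits Fosb, at 71.5 and 83.2 against 0.22 and 0.63 FPKM (log2 7.44 ± 0.34), and Fos, at 311 and 320.2 against 9.44 and 14.02 FPKM (log2 4.69 ± 0.17), came next within the list. Egr1, a zinc finger factor of the early growth response family, was at 215 and 304 against 28.1 and 35.9 FPKM (log2 2.96 ± 0.27), and Socs3, a feedback inhibitor of cytokine signalling, at 59.3 and 55.2 against 4.78 and 4.85 FPKM (log2 3.51 ± 0.17). Each of these genes was picked by a rule that required no overlap between the tissues. Cebpd was the other gene not called (log2 0.31 ± 0.18).

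Other genes among the 12 largest Schwann cell differences at 30 FPKM or more lie outside that list. Cyr61, a secreted matricellular protein and target of mechanical and serum signals, was at 302 and 479.9 FPKM in Schwann cells and 13.3 and 10.7 in whole nerve (log2 4.96 ± 0.26). Rgs16, a brake on G protein signalling, was at 73.6 and 93.5 against 6.18 and 3.60 FPKM (log2 4.54 ± 0.18). Gadd45a, a growth arrest and DNA damage gene, was at 433 and 379 against 51.3 and 42.7 FPKM (log2 3.05 ± 0.16). LOC684871, named Tcim in RefSeq, was at 282 and 309 against 28.3 and 28.2 FPKM (log2 3.32 ± 0.35). Absence of overlap between the tissues was a condition for entry among these 12 and is no finding.

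**Figure D3:**
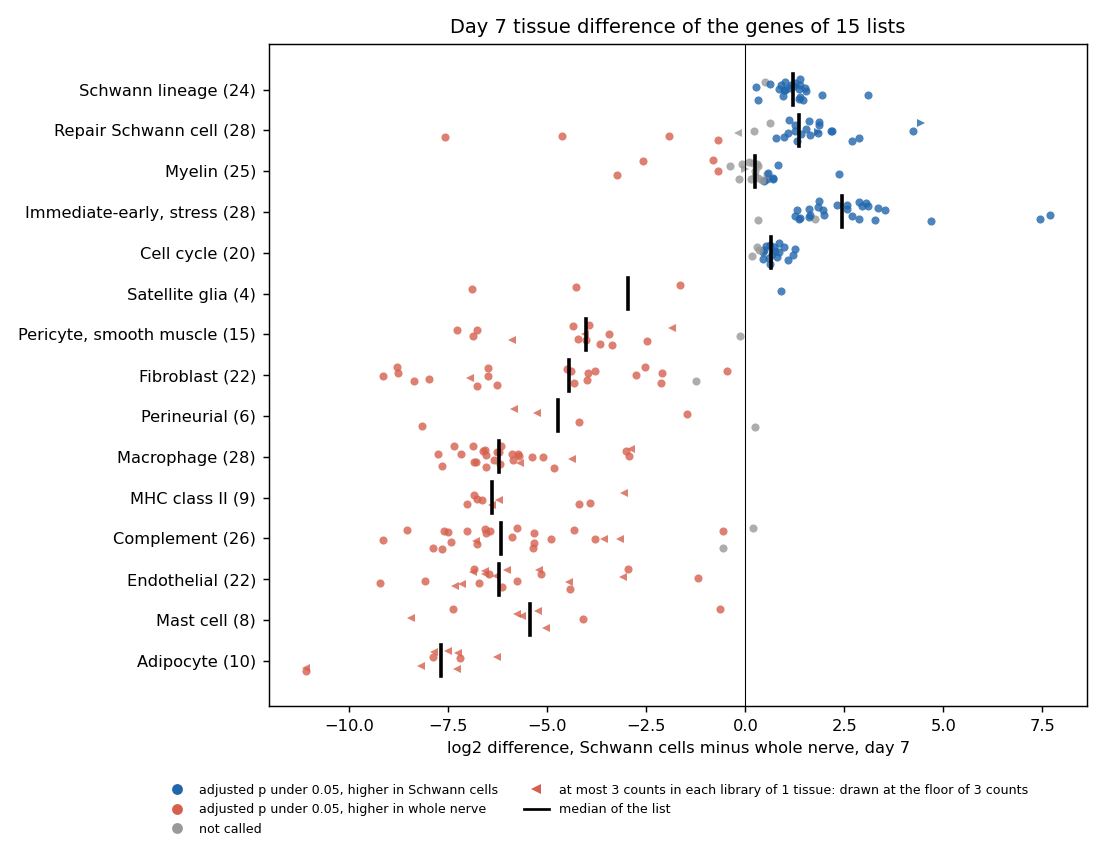
Log2 of Schwann cells over whole nerve at day 7 for the tested genes of 15 gene lists, with a point per gene coloured by its call and a bar at the list median, genes with at most 3 counts in each library of a tissue being drawn at that floor. The immediate-early and stress list (median 2.44) lies to the Schwann cell side, and the macrophage (-6.21), fibroblast (-4.46) and endothelial (-6.22) lists lie to the whole nerve side.

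Myelin genes were divided. Of 25 tested, 7 were higher in Schwann cells, a share near the background, 4 in whole nerve and 14 not called. The median log2 was 0.25, and the list summed to 8668 and 7112 FPKM in Schwann cells against 5922 and 6562 in whole nerve. Several genes for proteins of the myelin sheath did not separate the tissues. Mbp, myelin basic protein, stood at 799 and 633 against 724 and 717 FPKM (log2 -0.07 ± 0.12), with whole nerve inside the range of the purified cells. Pmp22 had a log2 of 0.29 ± 0.14 and Prx, the periaxin of the myelin sheath, of 0.15 ± 0.19, and neither was called. Pmp22 was called higher in Schwann cells without Schwann cell replicate 2 (log2 0.44, adjusted p = 0.0402) and with upper-quartile scaling (0.40, adjusted p = 0.0249).

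The clear exception was Egr2, the transcription factor that drives myelination, at 85.5 and 106 FPKM in Schwann cells and 15.7 and 19.6 in whole nerve (log2 2.37 ± 0.16, adjusted p = 1.74e-08). It belongs to the same family of early growth response genes as Egr1. Smaller increases were called for Cnp, a myelin enzyme (log2 0.83 ± 0.11), Mag, a glycoprotein that faces the axon (log2 0.69 ± 0.16), and Ugt8, which makes galactocerebroside (log2 0.54 ± 0.10). On the whole nerve side were Ncmap (log2 -0.83 ± 0.27) and Aspa (log2 -0.69 ± 0.23), with Smtnl2 and Cntn2 at under 2 FPKM in every library. Mag lost its call without Schwann cell replicate 1 (log2 0.46), Ncmap without Schwann cell replicate 2 or whole nerve replicate 2 (log2 -0.72 and -0.75) and Aspa without Schwann cell replicate 1, Schwann cell replicate 2 or whole nerve replicate 1 (log2 -0.68, -0.70 and -0.62). Of 22 genes of cholesterol synthesis, a pathway that supplies the myelin membrane, 5 were higher in Schwann cells, a share near the background, 3 were higher in whole nerve and 14 were not called. Srebf2, its main regulator, was at log2 0.86 ± 0.17, Sqle at 0.63 ± 0.18 and Insig1, which holds the pathway back, at -0.81 ± 0.15, and Sqle lost its call without Schwann cell replicate 1 or whole nerve replicate 1 (log2 0.55 and 0.49).

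Dividing-cell genes were higher in the purified cells. Of 20 cell cycle genes, 17 were higher in Schwann cells and 0 in whole nerve (median log2 0.64), and the list summed to 643 and 639 FPKM against 375 and 393. Mki67, the proliferation antigen, was at 55.8 and 62.5 FPKM in Schwann cells and 22.4 and 25.6 in whole nerve (log2 1.25 ± 0.11, adjusted p = 2.17e-07). Top2a, which untangles replicated DNA, was at 59.2 and 58.9 against 34.3 and 37.4 FPKM (log2 0.66 ± 0.12). Cenpf and Kif11, needed at the spindle, had log2 values of 1.20 and 1.08, and Birc5, Aurkb and Tyms were not called.

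The macrophage program was almost wholly on the whole nerve side. Lyz2, the lysozyme of myeloid cells, stood at 9.18 and 9.69 FPKM in Schwann cells and 963 and 1052 in whole nerve (log2 -6.80 ± 0.69, adjusted p = 1.46e-06). Csf1r, the receptor that keeps macrophages alive, was at 1.20 and 1.19 against 42.8 and 53.01 FPKM (log2 -5.39 ± 0.36). Cd68, a lysosomal glycoprotein of phagocytes, was at 1.28 and 1.37 against 42.6 and 45.3 FPKM (log2 -5.11 ± 0.28). Spi1, the factor that sets the myeloid lineage, had 0 counts in both purified libraries and was at least 20.8-fold higher in whole nerve. With every gene of at most 3 counts per purified library set at 3 counts there, the list median was -6.21.

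Gpnmb, a glycoprotein of lipid-laden phagocytes, had the smallest difference of that list and was still at 12.4 and 15.8 FPKM in Schwann cells against 98.4 and 107 (log2 -2.93 ± 0.12). Genes for antigen presentation followed the macrophage list. All 9 class II genes were higher in whole nerve, with Cd74, the invariant chain, at 3.05 and 3.27 FPKM in Schwann cells and 331 and 329 in whole nerve (log2 -6.77 ± 0.34), and the list summed to 6.35 and 6.30 against 614 and 613 FPKM. RT1-Da, a class II alpha chain, was at 0.96 and 1.46 against 131 and 128 FPKM, and reads of such polymorphic families can be shared among members.

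Other blood-derived cells lay on the whole nerve side as well. The 8 mast cell genes were all higher in whole nerve, led in abundance by Cpa3, the mast cell carboxypeptidase, at 0.81 and 1.37 against 159 and 177 FPKM, and by the chymase Cma1 at 0.14 and 0.31 against 98.5 and 74.5. Kit, the stem cell factor receptor of mast cells, was the member with the smallest difference, at 3.88 and 3.76 against 5.97 and 5.35 FPKM (log2 -0.63 ± 0.11). Of 5 neutrophil genes tested, 4 were higher in whole nerve and their sum there was 15.5 and 12.4 FPKM. All 9 lymphocyte genes were higher in whole nerve and summed to 18.9 and 15.98 FPKM, against 0.96 and 0.84 in Schwann cells, so both lists stood at a low level beside the macrophage list.

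Complement genes lay on the whole nerve side. Of 26 genes, 24 were higher in whole nerve and 0 in Schwann cells. The starter subunits C1qa, C1qb and C1qc had log2 values of -6.55, -6.57 and -7.65, and the proteases C1r and C1s of -3.79 ± 0.16 and -6.79 ± 0.19. C7, a late component of the membrane attack complex, was at 0.49 and 0.33 FPKM in Schwann cells and 228 and 235 in whole nerve (log2 -9.15 ± 0.75), and Serping1, the inhibitor of C1, was at 0.90 and 1.02 against 347 and 335 FPKM (log2 -8.55 ± 0.34). The smallest differences were those of Cd59, Itgax and Cd55. Cd59, which blocks the attack complex, was at 237 and 239.6 against 316 and 364 FPKM (log2 -0.57 ± 0.13), and Cd55, which speeds decay of the convertases, was at 19.1 and 30.4 against 20.4 and 20.9 FPKM and not called. Itgax, an integrin subunit of leukocytes that binds a complement fragment, was at 0.60 and 0.87 against 0.99 and 1.03 FPKM (log2 -0.56 ± 0.33) and was the other member not called.

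Genes for uptake and breakdown of debris lay on both sides, more often that of whole nerve. Of 31 phagocytic receptors, bridges and linkers, 5 were higher in Schwann cells, a share below the background, and 19 in whole nerve. Mertk, a receptor for dying cells and myelin, was at 22.1 and 27.6 FPKM in Schwann cells and 7.83 and 12.3 in whole nerve (log2 1.25 ± 0.17, adjusted p = 2.24e-05). Megf10, an engulfment receptor of glia, was at 24.5 and 23.1 against 12.97 and 14 FPKM (log2 0.77 ± 0.22), and Dock1, which links such receptors to the cytoskeleton, had a log2 of 0.69 ± 0.09. Megf10 lost its call without whole nerve replicate 1 (log2 0.73). The soluble bridge that Mertk binds, Gas6, was on the other side at 2.80 and 3.43 against 69.3 and 64.2 FPKM (log2 -4.49 ± 0.13), as was Mfge8, another bridge to dying cells, at 0.12 and 0.04 against 17.5 and 13.6 FPKM.

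The receptors of the professional phagocyte were higher in whole nerve, with Cd36, a scavenger of oxidized lipid, at log2 -7.97 ± 0.52, Msr1 at -7.36 ± 0.38 and Trem2 at -6.17 ± 0.47. Axl, a receptor of the same family as Mertk, was at 60.4 and 53.95 against 46.6 and 47.7 FPKM and Lgals3, a galectin of phagocytosing cells, at 146 and 146 against 159 and 147 FPKM, and neither was called. Lysosomal genes were the least divided of these lists, with 5 of 37 higher in Schwann cells, 18 in whole nerve and 14 not called. Npc1, which exports cholesterol from lysosomes, was higher in Schwann cells at 23.7 and 22.8 FPKM against 8.46 and 10.8 (log2 1.22 ± 0.13), while its luminal partner Npc2 was lower at 72.4 and 69.2 against 174 and 162 (log2 -1.31 ± 0.09). The proteases Ctss (log2 -6.63 ± 0.32), Ctsk (-5.42 ± 0.30) and Ctsl (-2.58 ± 0.13) were higher in whole nerve, and Lamp1 and Ctsd, found in lysosomes of all cells, were not called.

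Cholesterol efflux genes lay on both sides. Abca1, which loads cholesterol onto apolipoproteins, was at 258 and 266 FPKM in Schwann cells and 107 and 114 in whole nerve (log2 1.19 ± 0.10, adjusted p = 2.90e-07). Abcg1, another efflux pump, was on the whole nerve side at 0.32 and 0.68 against 7.94 and 7.85 FPKM (log2 -4.21 ± 0.28). Apoe, the main acceptor, was at 64.7 and 50.5 against 1601 and 1523 FPKM (log2 -4.81 ± 0.17), Apoc1 had a log2 of -3.72 ± 0.44 and Pltp, a phospholipid transfer protein, of -4.67 ± 0.19. Of the 14 genes, 4 were higher in Schwann cells, a share near the background, and 7 in whole nerve.

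Fibroblast genes lay far on the whole nerve side. Of 22 tested, 21 were higher in whole nerve and 0 in Schwann cells, with a median log2 of -4.46. Dcn, the small proteoglycan decorin, was at 6.56 and 4.51 FPKM in Schwann cells and 3064 and 3057 in whole nerve (log2 -9.15 ± 0.48, adjusted p = 1.37e-09). Lum, a related proteoglycan, was at 2.01 and 2.06 against 864 and 887 FPKM (log2 -8.81 ± 0.54), and Pdgfra, the receptor that marks nerve fibroblasts, at 0.13 and 0.09 against 37.1 and 36.9 FPKM (log2 -8.38 ± 0.41). Cd34, carried by endoneurial fibroblasts and endothelium, had 0 counts in the purified cells and was at least 125-fold higher in whole nerve. Mfap5 and Pi16, found in fibroblasts of the outer sheath, had log2 values of -6.50 ± 0.20 and -6.28 ± 0.41.

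The list was not uniform. Col14a1 differed little, at 63.5 and 50.4 FPKM in Schwann cells and 73.6 and 78.7 in whole nerve (log2 -0.47 ± 0.11). Col1a2 was not called, since it stood at 23.3 and 127 FPKM in the 2 Schwann cell libraries and 47.9 and 293 in the 2 whole nerve libraries. Col1a2 was also at 0 FPKM in both whole nerve libraries of day 5, while Col1a1, the other chain of the same collagen, kept a mean of 1420.0 FPKM there, so the record of Col1a2 is uncertain as a measure of its gene. At day 7 Col1a1 was at 209 and 243 against 1234 and 1731 FPKM (log2 -2.77 ± 0.19). The files also hold a record NEWGENE_621351 at 427 and 359 against 1447 and 1695 FPKM, among the 16 abundant genes lower by at least 4-fold.

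The nerve sheath and vessels stood apart in the same way. Of 6 perineurial genes 5 were higher in whole nerve, with the tight junction protein Cldn1 at 0.65 and 0.59 FPKM in Schwann cells and 195 and 153 in whole nerve (log2 -8.18 ± 0.34) and Msln at 0 counts in the purified cells, at least 56.99-fold higher in whole nerve. Itgb4, a laminin receptor subunit that Schwann cells also make, was not called at 50.9 and 52.03 against 41.8 and 41.8 FPKM. Of 22 endothelial genes 21 were higher in whole nerve (median log2 -6.99, or -6.22 with the same floor of 3 counts). Cdh5, the cadherin of endothelial junctions, was at 0.12 and 0.07 against 51.8 and 66.4 FPKM, and Lyve1, of lymphatic vessels and some macrophages, at 0.39 and 0.62 against 49.4 and 49.9 FPKM. Esam and Plvap had 0 counts in the purified cells and were at least 78.7-fold and 37.3-fold higher in whole nerve. The 22nd gene, Robo4, was at 0 FPKM in all 4 libraries.

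Of 15 mural genes 14 were higher in whole nerve (median log2 -4.03). Rgs5, a pericyte marker, was at 3.53 and 1.16 FPKM in Schwann cells and 245 and 284 in whole nerve (log2 -6.77 ± 0.43), and Kcnj8, a potassium channel of pericytes, was at least 59.1-fold higher there with 0 counts in Schwann cells. Pdgfrb, the receptor by which pericytes are often named, did not separate the tissues at 11.8 and 12.7 against 11.8 and 14.1 FPKM. Satellite and astrocyte-type glial genes split, with Kcnj10 higher in Schwann cells (log2 0.89 ± 0.14) and Glul, Gja1 and Slc1a3 higher in whole nerve (log2 -1.65 ± 0.13, -4.28 ± 0.28 and -6.91 ± 0.37).

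Adipocyte genes had the lowest median of the 34 lists, at -11.5, or -7.69 with the floor of 3 counts. All 10 were higher in whole nerve, and they summed to 3.19 and 2.41 FPKM in Schwann cells against 2445 and 1986 in whole nerve. Fabp4, a fatty acid carrier, was at 0.92 and 0.22 against 1596 and 1124 FPKM (log2 -11.10 ± 0.58, adjusted p = 1.53e-09). Car3, the carbonic anhydrase of fat and muscle, was at 0.64 and 0.09 against 931 and 981 FPKM (log2 -11.83 ± 0.57). Adipoq, the hormone adiponectin, had 1 and 2 counts in the Schwann cell libraries and stood at 339 and 325 FPKM in whole nerve.

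Several genes of that rank had no count in either purified library, so only a lower limit can be given. Thrsp, a regulator of fat synthesis, stood at 238 and 261 FPKM in whole nerve and was at least 1318-fold higher there. The limit was 231-fold for Cidec, which coats lipid droplets, 155-fold for Retn, the hormone resistin, 103-fold for Rbp7, a retinol carrier, 368-fold for Cd248, a surface protein of pericytes and fibroblasts, 71.9-fold for Cxcl9, a chemokine induced by interferon gamma, and 524-fold for the unnamed LOC108348061. Fmo1, a monooxygenase, had 1 and 0 counts in Schwann cells against 48.03 and 35.1 FPKM in whole nerve, and Islr had 0 and 2 counts against 72.5 and 64.6 FPKM.

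Genes of the neuronal list were mixed. Of 10 tested, 3 were higher in Schwann cells, namely Calca (log2 3.18), Scn9a (1.22) and Uchl1 (0.91). Snap25 and Prph were higher in whole nerve, and 5 were not called. Calca and Prph had a mean under 1 FPKM in both tissues. The list summed to 269 and 263 FPKM in Schwann cells against 176 and 104 in whole nerve, and whether these messages came from axons was not tested. The neurofilament gene Nefm stood at 116 and 106 against 77.96 and 46.5 FPKM and Nefl, another, at 124 and 126 against 83.03 and 38.3, with the whole nerve replicates well apart, and neither was called over the 16 libraries. Without whole nerve replicate 1 both were called higher in Schwann cells (log2 1.21 for Nefm and 1.65 for Nefl), as they were with the 4 day 7 libraries alone (0.77 and 0.97). Snap25, of the synaptic release machinery, had 0 counts in Schwann cells and 1.59 and 1.25 FPKM in whole nerve.

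Collagen genes lay on both sides. Of 37 tested, 10 were higher in Schwann cells, a share near the background, and 21 in whole nerve (median log2 -1.16). The Schwann cell side held Col27a1, a fibrillar collagen, at 19.2 and 21.6 FPKM against 3.94 and 4.46 (log2 2.29 ± 0.11), Col9a3 at 81.3 and 74.7 against 29.2 and 27.7 (log2 1.39 ± 0.11), and the low-level Col7a1 (log2 2.73 ± 0.26). The whole nerve side held the bulk fibrillar collagen Col3a1 at 125 and 89.3 FPKM in Schwann cells and 2213 and 2169 in whole nerve (log2 -4.41 ± 0.24), and the microfibril chains Col6a1 (log2 -4.54 ± 0.20) and Col6a2 (-5.09 ± 0.24). Chains of type IV collagen, the net of the basal lamina, were higher in whole nerve by small amounts for Col4a1 (log2 -1.12 ± 0.10) and Col4a2 (-1.16 ± 0.14). The fitted values were far larger for Col4a3 (-6.28), Col4a4 (-7.22) and Col4a5 (-7.61), on the same side. Col22a1 had 0 counts in Schwann cells and was at least 75.7-fold higher in whole nerve.

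Of 33 genes for laminins, integrins and dystroglycan, 9 were higher in Schwann cells, a share near the background, and 13 in whole nerve. Itgb8, an integrin subunit that activates latent TGF-beta, was at 698 and 856 FPKM in Schwann cells and 228 and 277 in whole nerve (log2 1.57 ± 0.16, adjusted p = 1.30e-06). Dag1, the dystroglycan that ties Schwann cells to laminin, was at 535 and 527 against 175 and 225 FPKM (log2 1.35 ± 0.12). Itga7 (log2 1.65 ± 0.10), Itga6 (1.16 ± 0.12) and Lama2, the laminin chain of the Schwann cell basal lamina (0.75 ± 0.12), were also higher in the purified cells. The shared subunit Itgb1 did not differ detectably, at 235 and 222 against 234 and 222 FPKM, nor did Lamc1, at 128 and 118 against 113 and 126 FPKM. The members on the whole nerve side were mostly of low level or of leukocytes, such as Itgb2 (log2 -5.36 ± 0.48) and Itgam (-5.88 ± 0.49).

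Of 31 other matrix and matricellular genes 7 were higher in Schwann cells, a share near the background, and 24 in whole nerve (median log2 -2.82). Hspg2, the basal lamina proteoglycan perlecan, was at 65.2 and 73.5 FPKM in Schwann cells and 17.3 and 23.1 in whole nerve (log2 1.72 ± 0.15), and Thbs2, a thrombospondin, at 210.1 and 201 against 51.4 and 58.1 FPKM (log2 1.85 ± 0.12). Members of the same families lay on both sides, since Thbs1 (log2 -5.26 ± 0.31), Thbs3 (-2.82 ± 0.20) and Thbs4 (-1.95 ± 0.17) were higher in whole nerve. Nid2 was higher in Schwann cells (log2 0.68 ± 0.14) and Nid1 in whole nerve (-1.73 ± 0.14), both being linkers of the basal lamina. Fn1, fibronectin, was at 3.14 and 3.78 against 363 and 373 FPKM (log2 -6.78 ± 0.28), and Postn, periostin, at 89.99 and 64.6 against 417 and 463 FPKM (log2 -2.53 ± 0.24).

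Of 24 proteases and inhibitors 10 were higher in Schwann cells and 8 in whole nerve. Plat, the tissue plasminogen activator, was at 426 and 512 FPKM in Schwann cells and 157 and 193 in whole nerve (log2 1.36 ± 0.11, adjusted p = 1.79e-07). The other activator, Plau, was at 0.54 and 0.50 against 7.94 and 8.87 FPKM (log2 -4.06 ± 0.27), so the pair lay on opposite sides. Adamts1, a proteoglycan-cutting enzyme, was at 72.3 and 114 against 13.5 and 15.2 FPKM (log2 2.64 ± 0.21), and the inhibitor Serpine2 had a log2 of 1.18 ± 0.18. Mmp2, a gelatinase, was at 4.33 and 3.79 against 99.5 and 96.9 FPKM (log2 -4.65 ± 0.18), and Timp4 lay far on the same side at 0 and 0.05 against 12.6 and 8.15 FPKM.

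Growth factors divided between the tissues. Of 44 ligands 14 were higher in Schwann cells and 20 in whole nerve. Beside the repair factors already given, the Schwann cell side held Hbegf, a ligand of the epidermal growth factor family, at 31.4 and 35.8 FPKM against 10.4 and 8.12 (log2 1.80 ± 0.16), Tgfa of the same family at 10.8 and 12.3 against 3.75 and 4.82 (log2 1.37 ± 0.17), and Pdgfa at 76.1 and 98.5 against 34.9 and 47.7 (log2 1.02 ± 0.13). Dhh, the hedgehog protein by which Schwann cells organise the nerve sheath, was at 106 and 93.2 against 52.3 and 49.9 FPKM (log2 0.90 ± 0.09). On the whole nerve side the insulin-like growth factors were the most abundant, with Igf1 at 0.71 and 0.55 FPKM in Schwann cells and 210.4 and 209 in whole nerve (log2 -8.21 ± 0.49) and Igf2 at 0.47 and 0.54 against 171 and 189 (log2 -8.54 ± 0.47). Bmp4 and Bmp7 were under 0.1 FPKM in the purified cells.

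Of 37 growth factor receptors 10 were higher in Schwann cells, a share near the background, and 21 in whole nerve. Ednrb, an endothelin receptor of the neural crest lineage, was at 507 and 536 FPKM in Schwann cells and 188 and 249 in whole nerve (log2 1.19 ± 0.15), and Erbb2, the partner of Erbb3, was at 9.94 and 9.94 against 3.54 and 4.23 FPKM and called higher. The low-level Gfra4 was also higher (log2 1.78 ± 0.63), a call lost without Schwann cell replicate 1, Schwann cell replicate 2, whole nerve replicate 1 or whole nerve replicate 2 (log2 1.89, 1.66, 1.87 and 1.68). Ret, the signalling chain for Gdnf and its relatives, was at 0.02 and 0 FPKM in Schwann cells and 0.76 and 0.84 in whole nerve, and Fgfr1 had a log2 of -1.98 ± 0.10.

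Chemokines and cytokines were mostly on the whole nerve side, with 18 of 31 higher there and 4 in Schwann cells. The exceptions were Cxcl1 and Cxcl2, which attract neutrophils, Lif and Cxcl14. Cxcl1 was at 25.4 and 33.1 FPKM in Schwann cells and 0.60 and 0.60 in whole nerve (log2 5.50 ± 0.33, adjusted p = 4.82e-09), and Cxcl2 was at 1.23 and 1.78 FPKM with 0 counts in whole nerve, at least 5.89-fold higher. Lif, an injury cytokine, was at 3.33 and 3.77 against 1.08 and 1.57 FPKM (log2 1.60 ± 0.31) and Cxcl14 had a log2 of 0.69 ± 0.16. Ccl2, the main attractant of monocytes, did not separate the tissues, at 108 and 152 FPKM in Schwann cells and 155 and 118 in whole nerve (log2 -0.14 ± 0.23). In uncrushed nerve the list summed to 1138 FPKM in Schwann cells and 247 in whole nerve (means of 2 libraries), and at day 7 to 223 and 640. Against uncrushed nerve the difference of 7 members moved toward whole nerve and of 1 toward Schwann cells, beside 14.4% and 11.6% of all genes.

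Among the whole nerve cytokines were Il33, an alarmin, at 0.94 and 1.69 against 126 and 112 FPKM (log2 -6.62 ± 0.27), Cxcl12 at 0.26 and 0.29 against 37.5 and 34.97 (log2 -6.80 ± 0.55) and Ccl6 at 1.11 and 1.59 against 108 and 92.6 (log2 -6.30 ± 0.63). Ccl21, a lymphatic chemokine, had 0 counts in Schwann cells and was at least 88.4-fold higher in whole nerve. Of 22 cytokine receptors 18 were higher in whole nerve and only Il1rap, an accessory chain of interleukin receptors, was higher in Schwann cells (log2 0.85 ± 0.23), a call lost without Schwann cell replicate 1 or whole nerve replicate 2 (log2 0.71 and 0.63). The exceptions were Cxcr4, the receptor of Cxcl12, at 39.3 and 36.7 against 38.1 and 32.3 FPKM, with Il10rb and Il1r2, none of them called.

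Ligands and receptors were also read as 40 fixed pairs, to show on which side each partner lay. Both partners were higher in Schwann cells in 2 pairs, Gdnf with Gfra1 and Spp1 with Cd44, although Spp1 lost its call without Schwann cell replicate 1 or whole nerve replicate 2 (log2 0.46 and 0.45). The ligand was higher in Schwann cells and the receptor in whole nerve in 7 pairs, which were Shh and Dhh with Ptch1, Pdgfa with Pdgfra, Lgi4 with Adam22, Slit2 with Robo1, Lif with Lifr and Clcf1 with Cntfr. The reverse held in 6 pairs, which included Pros1 with Mertk, Hgf with Met, Igf1 with Igf1r, Jag1 with Notch1 and Mdk with Ptprz1. Both partners were higher in whole nerve in 8 pairs, which were Csf1 with Csf1r, Cx3cl1 with Cx3cr1, Vegfc with Flt4, Edn1 with Ednra, Apoe with Lrp1, Slit3 with Robo1, Il33 with Il1rl1 and C3 with C3ar1, and Cx3cl1 lost its call without Schwann cell replicate 2 or whole nerve replicate 2 (log2 -1.70 and -1.52).

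In the remaining pairs at least 1 partner was not called or not tested. The ligand was not called and the receptor was higher in whole nerve in 8, which were Il34 with Csf1r, Bdnf with Ntrk2, Vegfa with Kdr, Tgfb1 with Tgfbr2, Angpt1 with Tek, Il6 with Il6r, Il1b with Il1r1 and Osm with Osmr. The receptor alone was higher in Schwann cells in 2 (Nrg1 with Erbb3 and Edn3 with Ednrb). The ligand alone was higher in whole nerve in 4 (Cxcl12 with Cxcr4, Pdgfb with Pdgfrb, Gas6 with Axl and Efnb2 with Ephb2) and in Schwann cells in 1 (Artn with Gfra3). Artn lost its call without Schwann cell replicate 2 or whole nerve replicate 2 (log2 1.53 and 1.65), and Tnfrsf1a without Schwann cell replicate 2, whole nerve replicate 1 or whole nerve replicate 2 (log2 -0.25, -0.44 and -0.27). Calls were gained by Vegfa without whole nerve replicate 1 (log2 0.56), by Edn3 without whole nerve replicate 2 (0.86) and by Il1b without Schwann cell replicate 2 (-4.32). Tnf, the partner of Tnfrsf1a, did not pass the filter, and the receptor of Ccl2 was not analysed here.

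The opposed pairs differed widely in size. Pdgfa had a log2 of 1.02 and its receptor Pdgfra of -8.38. Ptch1, the hedgehog receptor, was at 26.7 and 28.5 FPKM in Schwann cells and 44.9 and 47.4 in whole nerve (log2 -0.80 ± 0.09). Igf1r, the receptor of Igf1, was at 10.3 and 11.2 against 4.24 and 5.22 FPKM (log2 1.12 ± 0.12), against the difference of -8.21 for its ligand. Met, the receptor of hepatocyte growth factor, was at 19.4 and 23.7 against 8.64 and 8.52 FPKM (log2 1.27 ± 0.13), and its ligand Hgf at 0.15 and 0.09 against 1.43 and 1.73. Notch1 had a log2 of 1.41 ± 0.14 and its ligand Jag1 of -3.71 ± 0.29, and Ptprz1, a receptor for midkine, had 1.89 ± 0.19. Levels of messages do not show that the proteins met.

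**Figure D4:**
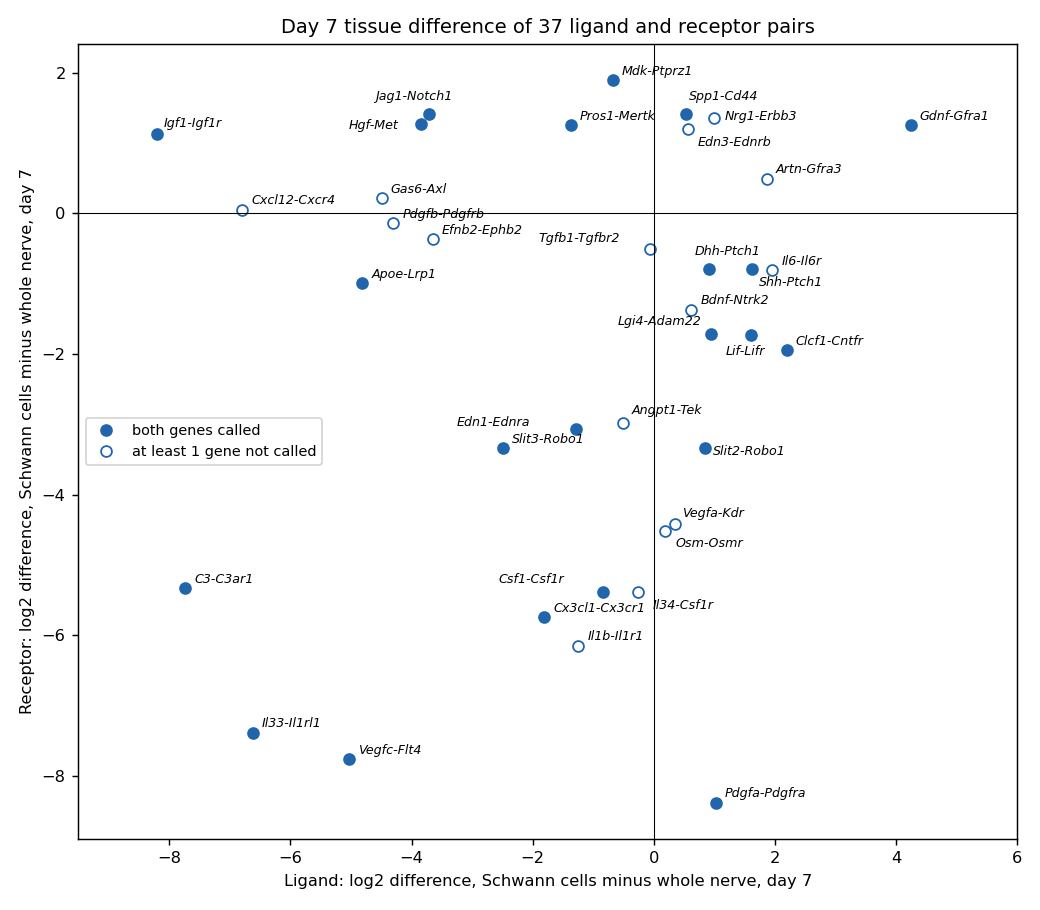
Log2 of Schwann cells over whole nerve at day 7 for the ligand (horizontal axis) and the receptor (vertical axis) of 37 of the 38 fixed pairs with both partners tested. Gdnf with Gfra1 and Spp1 with Cd44 lie in the quadrant where both are higher in Schwann cells, and Pdgfa with Pdgfra lies far down on the side of a Schwann cell ligand.

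Of 41 transcription factors 13 were higher in Schwann cells and 23 in whole nerve. Beside Jun, Egr2, Runx2 and Sox2, the Schwann cell side held Id4 and Id2, inhibitors of helix-loop-helix factors, at log2 2.62 ± 0.20 and 1.28 ± 0.16, Tead1, the partner of Yap, at 115 and 123 FPKM against 46.2 and 52.5 (log2 1.22 ± 0.10), and the POU factors Pou3f1 (1.00 ± 0.17) and Pou3f2 (1.09 ± 0.29), the last losing its call without whole nerve replicate 1 (log2 0.94). Yap1 itself was slightly higher in whole nerve (log2 -0.49 ± 0.11) and its relative Wwtr1 in Schwann cells (0.44 ± 0.09). The whole nerve side held factors of other lineages, with Prrx1 of fibroblasts at 0.05 and 0.07 against 28.9 and 28.3 FPKM, Erg of endothelium at 0.04 and 0 against 12.4 and 14.2 FPKM, and Twist1, of mesenchyme, at least 33.8-fold higher with 0 counts in Schwann cells. Sox9 (log2 -4.32 ± 0.19) and Snai2 (-5.10 ± 0.27) lay there too, although both belong to the early neural crest. Nab2, a co-repressor of the early growth response factors, was not called, at 12.4 and 12.5 against 12.2 and 11.3 FPKM, whereas Nab1 was higher in whole nerve (log2 -2.36 ± 0.14).

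Whether the tissue difference of day 7 was its own was asked by testing it against the same difference at the other times, as an interaction in the same fit. Against uncrushed nerve 4374 genes (26.0%) had another tissue difference, against day 3 1034 (6.14%) and against day 5 53 (0.315%). Against day 3, 409 (2.43%) moved toward Schwann cells and 625 (3.71%) toward whole nerve, a split that DESeq2 put at 400 and 1014. The day 3 count fell to 518 without Schwann cell replicate 1 of day 7 and to 629 without whole nerve replicate 1, and was 1840 with no filter on low counts. The day 5 count was 5 without Schwann cell replicate 1, 15 without whole nerve replicate 1, 83 without Schwann cell replicate 2 and 53 without whole nerve replicate 2, and it was 236 with DESeq2 and 629 with no filter on low counts, so it depends on single libraries and on the method. These tests share the day 7 libraries, and each is given for itself. Uncrushed nerves, also called before injury here, were naive nerves without a sham operation, so injury and surgery cannot be told apart in tests against them. Whether they matched the day 7 nerves in age at collection is not settled by the labels.

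The tissue difference of myelin genes lay further toward Schwann cells at day 7 than in uncrushed nerve. Their median log2 in time order, from uncrushed to day 7, was -1.26, 0.64, 0.76 and 0.25, and 15 of 25 differed between day 7 and uncrushed nerve in the Schwann cell direction, as did 11.6% of all genes tested. The list sum of whole nerve (mean of the 2 libraries) was, in the same order, 42518, 1668, 2326 and 6242 FPKM, and that of Schwann cells 18821, 2627, 4053 and 7890.1 FPKM. Pmp2, a lipid-binding protein of myelin, had its difference raised by 3.90 ± 0.20 against uncrushed nerve (adjusted p = 2.35e-08), with whole nerve at 2303 FPKM in uncrushed nerve and 316 at day 7. Cntf, the ciliary neurotrophic factor of myelinating Schwann cells, had its difference raised by 3.91 ± 0.18 (adjusted p = 1.92e-08). Against day 3, Mbp moved the other way by -0.72 ± 0.17 (adjusted p = 0.0197), with whole nerve at 263 FPKM on day 3 and 721 on day 7, and Schwann cells at 396 and 716. Mbp lost this call without Schwann cell replicate 2 or whole nerve replicate 1 (-0.54 and -0.70).

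The immediate-early and stress genes had moved the other way. Their median log2 went from 4.05 before injury to 2.05, 2.31 and 2.44 after it, and 18 of 28 had a smaller Schwann cell excess at day 7 than in uncrushed nerve, where 14.4% of all genes moved toward whole nerve. The summed FPKM of Schwann cells was 7210.2 in uncrushed nerve and 2737 at day 7, while that of whole nerve was 242 and 385. Against day 3, the difference of 5 members had moved toward Schwann cells, namely Fosl1, Dnajb1, Socs3, Cebpd and Myc, against 2.43% of all genes. Cebpd lost that call without whole nerve replicate 1 (1.11), and Myc without Schwann cell replicate 2 or whole nerve replicate 1 (1.06 and 1.07). The difference of the mitochondrial messages had a median of -2.53 in uncrushed nerve and of -0.17, -1.07 and -0.67 at days 3, 5 and 7.

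Cell cycle genes had their smallest tissue difference at day 3. Their median log2 was 1.51 before injury and -0.12, 0.20 and 0.64 after it. Between day 3 and day 7 the difference of 14 of 20 had moved toward Schwann cells, as did 2.43% of all genes. Against uncrushed nerve 11 of 20 had moved toward whole nerve, as did 14.4% of all genes, and 0 toward Schwann cells. The list sum (mean of 2 libraries) was 888 FPKM in Schwann cells at day 3 and 641 at day 7, and 992 and 384 in whole nerve. Macrophage genes stayed on the whole nerve side at each time, and their sum in whole nerve was 753 FPKM before injury and 4155, 2293 and 2429.8 FPKM after it, against 32.3, 125, 59.04 and 40.7 in Schwann cells. The class II sum of whole nerve was highest at day 7, at 613 FPKM, after 93.3 before injury and 330.1 and 413 at the times between.

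Against day 5, with its 53 genes, Col4a1 had its tissue difference moved toward Schwann cells by 1.35 ± 0.14 (adjusted p = 0.00119) and Postn by 1.79 ± 0.33 (adjusted p = 0.0357). For Col4a1 Schwann cells went from 11.98 to 20.5 FPKM while whole nerve went from 64.2 to 42.9. Cdh2 moved the same way by 0.89 ± 0.15 (adjusted p = 0.0211). Genes that moved toward whole nerve included Cryab, a small heat shock protein of Schwann cells, by -1.59 ± 0.22 (adjusted p = 0.00693), Npc2 by -0.83 ± 0.12 (adjusted p = 0.00876) and Gpnmb by -0.96 ± 0.16 (adjusted p = 0.019). For Gpnmb Schwann cells stood at 29.8 FPKM on day 5 and 14.1 on day 7, and whole nerve at 112 and 103. Of these genes Col4a1 kept its call without each day 7 library in turn. Without Schwann cell replicate 1 the others were not called (1.51 for Postn, 0.95 for Cdh2, -1.41 for Cryab, -0.87 for Npc2 and -0.80 for Gpnmb), nor without whole nerve replicate 1 were Postn, Cdh2, Npc2 and Gpnmb (1.72, 0.89, -0.78 and -1.02), nor without whole nerve replicate 2 Postn, Cdh2 and Gpnmb (1.86, 0.88 and -0.90).

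**Figure D5:**
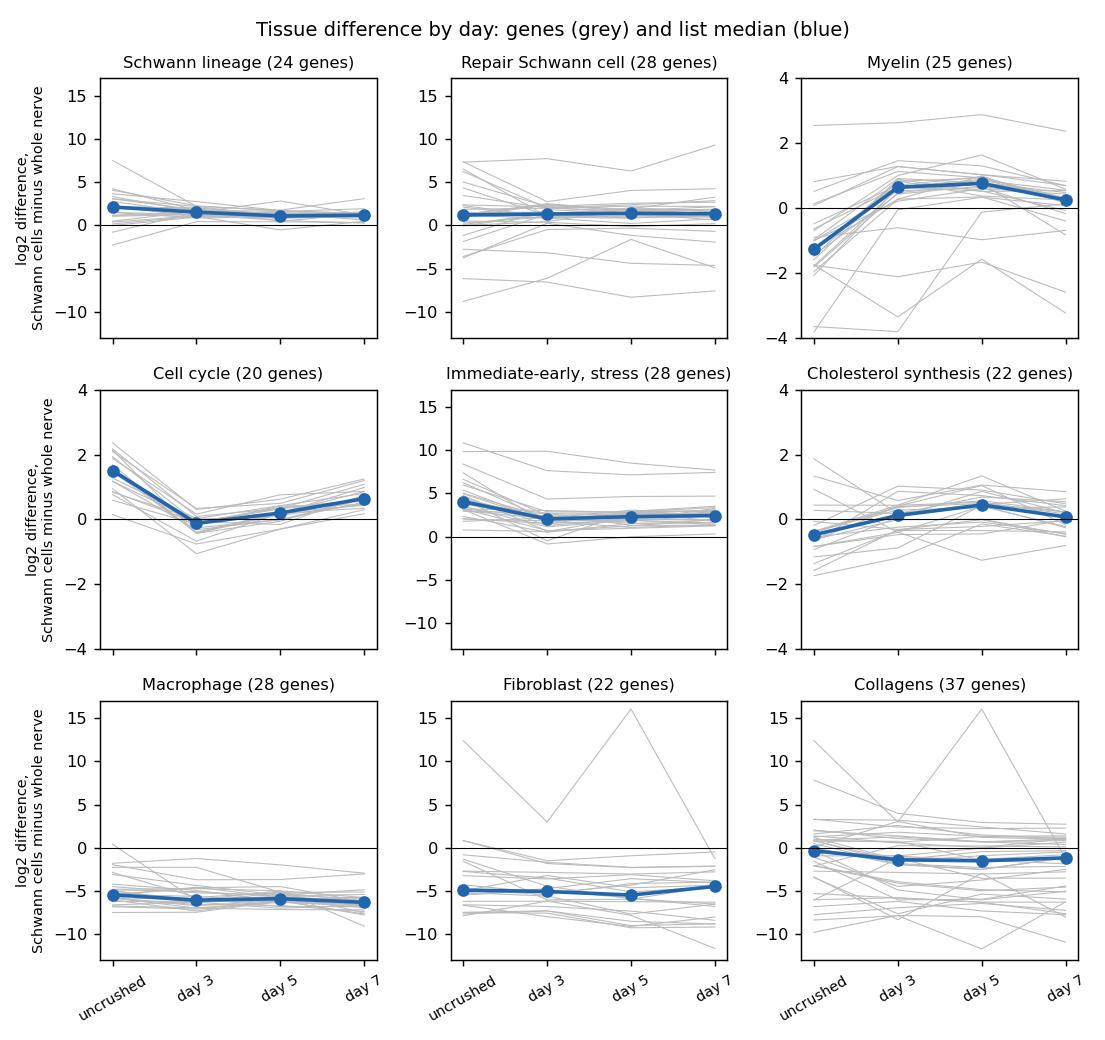
Log2 of Schwann cells over whole nerve for the tested genes of 9 gene lists in uncrushed nerve and at days 3, 5 and 7, with a thin line per gene (fitted values, genes near 0 included) and a thick line through the list medians. The myelin median goes from -1.26 to 0.64, 0.76 and 0.25, the cell cycle median from 1.51 to -0.12, 0.20 and 0.64, and the macrophage median stays far to the whole nerve side.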

How the data were processed

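RNA of rat Schwann cells and of undissociated sciatic nerve was amplified with the Ovation RNA-seq system V2, which carries no molecular identifiers, and sequenced, so floors of 3 counts cover counting error only, whereas standard errors cover the spread between libraries. The authors aligned reads with STAR to Rnor_6.0 and counted them per gene with RSEM, whose expected counts, not normalized, were deposited for each library. The FPKM values used as levels were computed by RSEM and deposited by the authors with the counts. Aligner and counter names come from the submitters' processing notes. A deposited matrix of counts for the same libraries was not used here.

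Expected counts were rounded and tested with edgeR 4.0.16 (R 4.3.3) by its quasi-likelihood test with TMM scaling, filterByExpr, 1 mean per group over the 8 groups and Benjamini-Hochberg adjustment over all 16829 genes tested. Standard errors are the log2 difference over the square root of F. An exact permutation test of 2 libraries against 2 cannot go below a two-sided p of 0.333, so none was run. The fitting code was tested on simulated data with known changes. A gene with 0 counts in every library of a tissue was set at 3 counts per library for a lower limit of its fold.

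The comparison, its 34 gene lists and its 40 pairs were chosen with earlier results of these data known. Named genes were the 12 of largest difference in each direction among called genes at 30 FPKM or more whose tissues did not overlap. Up to 4 members at each end of each list at 1 FPKM or more and both genes of each pair were named as well. So were the 20 most abundant genes of whole nerve and the 5 of lowest p in each direction in each test between days. Other genes named were chosen after their values were seen. Of 732 list genes 18 had no record in the tables and 50 did not pass the filter. The 12 alternatives were DESeq2 1.42.0, upper-quartile and median-ratio scaling, other count filters, the 4 libraries alone, a replicate block, tests without mitochondrial and ribosomal RNA genes, and leaving out each library. Promoters came from RefSeq. The values of some list members are not reported here.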

Additional observations from a re-analysis of the deposited data

Results flagged for a closer look

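For 30 genes the tissue difference at day 7 differed from that at another time in edgeR's test of the interaction, as the 5 of lowest p in each direction of each of the 3 tests. Values are log2 changes of the tissue difference (Schwann cells over whole nerve) with their standard errors, and no explanation was weighed.

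Against uncrushed nerve the difference moved toward Schwann cells for Cntf (3.91 ± 0.18), Pmp2 (3.90 ± 0.20), Akr1b1, an aldose reductase (2.81 ± 0.14), Atp8a1, a phospholipid flippase (2.38 ± 0.13), and Scd2, a fatty acid desaturase (2.48 ± 0.14). Scd2 stood at 1215 FPKM in Schwann cells and 3065 in whole nerve before injury (means of 2 libraries), and at 1928 and 1039 at day 7. It moved toward whole nerve for Cp, the copper carrier ceruloplasmin (-5.11 ± 0.15), Abca9 (-5.21 ± 0.22), Mfap5 (-5.18 ± 0.24), Apoe (-4.38 ± 0.21) and Olfml1 (-2.99 ± 0.15). Apoe stood at 176 and 224 FPKM in Schwann cells and 210.3 and 226 in whole nerve before injury, where the tissues overlapped, and at 64.7 and 50.5 against 1601 and 1523 at day 7. Cp went from 51.1 to 4.88 FPKM in Schwann cells and from 25.9 to 103 in whole nerve.

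Against day 3 the difference moved toward Schwann cells for Dab2, an endocytic adaptor (2.85 ± 0.16), Fbln5, a protein of elastic fibres (4.07 ± 0.27), Cpxm1 (2.61 ± 0.24), Rhoj (1.50 ± 0.14) and Nrep (1.60 ± 0.15). Dab2 went from 4.58 to 22.9 FPKM in Schwann cells and from 113 to 72.9 in whole nerve. It moved toward whole nerve for Nkd2, a brake on Wnt signalling (-2.33 ± 0.15), Igfbp5 (-1.83 ± 0.17), Gpnmb (-1.70 ± 0.16), Ltbp4 (-1.46 ± 0.14) and Nrp2, a semaphorin receptor (-1.56 ± 0.15). Nrp2 went from 87.2 to 37.8 FPKM in Schwann cells and from 35.02 to 40.4 in whole nerve.

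Against day 5 it moved toward Schwann cells for Gypc (2.88 ± 0.29), Col4a1 (1.35 ± 0.14), Nr1d1, a clock gene (1.87 ± 0.20), Sema5a (2.17 ± 0.28) and Smc4, a condensin subunit (1.14 ± 0.15), and toward whole nerve for Fyb, an adaptor of blood cells (-1.64 ± 0.19), LOC100362814 (-1.45 ± 0.19), Cryab (-1.59 ± 0.22), Sbspon (-1.46 ± 0.21) and Npc2 (-0.83 ± 0.12). Cryab went from 286 to 294 FPKM in Schwann cells and from 38.7 to 119.6 in whole nerve. Without Schwann cell replicate 1 of day 7 the calls of Smc4 (1.07), LOC100362814 (-1.36), Cryab (-1.41), Sbspon (-1.31) and Npc2 (-0.87) were lost, and without whole nerve replicate 1 those of Sbspon (-1.34) and Npc2 (-0.78). No group had more than 2 libraries, so no single library could be tested as an outlier.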

How the results depend on the processing

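The counts of genes higher in Schwann cells (2867 to 4546) and in whole nerve (3246 to 5008) stayed within 1.5 times the reported ones under all 12 alternatives. With at least 10 counts in every day 7 library, which drops genes near 0 in a tissue, only 120 and 548 genes passed 4-fold. With no filter on low counts, 1840 genes differed from day 3 and 629 from day 5, and with DESeq2 236 from day 5 (129 toward Schwann cells and 107 toward whole nerve) and 1014 toward whole nerve against day 3. Leaving out each library gave 518 to 807 genes against day 3 and 5 to 83 against day 5. The causes were not tested. Upper-quartile scaling moved the median of all genes by 0.10, to 0.07, with 4546 and 4299 calls.

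Replicate numbers carried no pairing: deviations of same-numbered day 7 libraries of the 2 tissues correlated at 0.005. With a replicate block, 3731 genes were higher in Schwann cells and 4780 in whole nerve, and of the genes named in the text only Cd63 lost its call.

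Of 331 genes named, 278 kept direction and call under every alternative in which they were tested, and 20 called genes lost the call without at least 1 library, each given beside its value except CYTB, ND1 and ND4L. Another 19, not called as reported, were called under at least 1 alternative. They were Akr1b1, Aurkb, Axl, Edn3, Itgb4, Lamp1, Nefm, Pmp22, Vegfa and Zeb2 with upper-quartile scaling, Angpt1, Ier2, LOC257642, Nefl and Nefm with the 4 libraries alone, Angpt1, Col1a2, Ier2, Igfbp2, LOC257642, Nefl, Nefm, Pmp22 and Rn18s with no count filter, Angpt1 with DESeq2, Angpt1 and Nkd2 with the filter of 10 counts, and Edn3, Igfbp2, Il1b, Nefl, Nefm, Pmp22, Rn18s and Vegfa without 1 library. Of 39 tests of a named gene between days, 28 kept direction and call throughout, and 11 lost the call without at least 1 library, 8 of them against day 5. Genes that changed sign were among those not called. Upper-quartile scaling put Itgb1 at 0.046, Lamc1 at 0.093, Mbp at 0.028, Ctsd at 0.097 and Tgfb1 at 0.040, and the filter of 10 counts put Cxcr4 at -0.0096, Nab2 at -0.026 and Rn28s at -0.00065. Leaving out each library gave -0.40 to 0.077 for Ccl2, -0.14 to 0.48 for Cd55, -2.92 to 0.57 for Col1a2, -0.15 to 0.12 for Ctsd, -0.070 to 0.17 for Cxcr4, -0.70 to 0.057 for Il34, -0.082 to 0.060 for Lamc1, -0.27 to 0.097 for Mbp, -0.029 to 0.090 for Nab2, -4.63 to 4.83 for Osm, -0.21 to 0.31 for Pmp2, -0.17 to 0.41 for Prx, -0.11 to 1.17 for Rn18s, -0.25 to 0.45 for Rn28s and -0.18 to 0.058 for Tgfb1.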

Other observations

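Some members of the gene lists had too few counts to be tested at this depth. They included the growth factor ligands Ereg, Nrtn, Ntf4 and Pspn, the receptor Fgfr4, the cytokines Il10, Il11, Il1a and Tnf with the chemokine Ccl19, the collagens Col23a1, Col25a1 and Col4a6, the laminin chains Lama1 and Lamb3, the proteases Mmp3, Mmp7, Mmp8, Mmp10 and Mmp13, and the transcription factors Olig1, Runx3 and Tcf21. Not being tested says nothing of whether they differed.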
